A study of Mus musculus with 8 samples.

Results

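The nuclear-encoded subunits of the mitochondrial respiratory chain were followed in single-nucleus RNA libraries of gastrocnemius, the mouse calf muscle. The members were the genes whose symbols begin with Nduf and a subunit letter (a, b, c, s or v) and number, the Sdh genes, and the genes beginning with Uqcr, with Cox4 to Cox8 or with Atp5. A symbol had to be named in the gene lists of all 8 libraries, which held for 83 of 21207 symbols. Assigned by symbol alone, complex I had 37 members (Ndufa4 among them), complex II 4, complex III 8, complex IV 17 and complex V 17. Cyc1 and Ndufab1 did not match the rule and are in a list of other pathway genes below. The rule used names and no measured value. It also took Cox7a2l, which is known to help respiratory complexes join rather than to be a subunit of complex IV, and Ndufb1-ps, a symbol that carries a pseudogene suffix. The annotation had an entry for 82 of the 83 members, on 19 chromosomes.

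All libraries came from wild-type C57BL/6 mice in 4 groups of 2 libraries each. Old mice were 20 months old and Young mice 3 months old. Running mice were 11 months old when they started 2 months of treadmill running at 9 m per min in sessions of 30 min, and Sedentary mice were their controls that did not run. Each group had 1 library made with 10x Genomics droplets (the 10x set, replicate 1) and 1 made with the DNBelab C system (the second set, replicate 2). The sex of these animals and the number of animals behind a library are not stated in the sources used here.

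The respiratory chain passes electrons from NADH (complex I) and succinate (complex II) through ubiquinone to complex III, then by cytochrome c to complex IV, which reduces oxygen. Complexes I, III and IV pump protons across the inner mitochondrial membrane, and complex V, the ATP synthase, uses the gradient to make ATP. Apart from complex II, whose subunits are all encoded in the nucleus, each complex joins nuclear-encoded subunits with subunits made from mitochondrial DNA. Muscle fibres that express the IIa myosin Myh2 or the slow myosin Myh7 are known to be richer in mitochondria than the fast IIb fibres that express Myh4, with the IIx fibres that express Myh1 between them. Several complex IV subunits exist as a ubiquitous and a heart and muscle isoform.

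The files hold unique molecular identifier (UMI) counts, which count each captured RNA molecule once. The libraries held between 4839878 and 44454427 UMIs, and 64803 of 65280 nuclei passed the filters on genes and mitochondrial share. The median UMIs per nucleus were between 909 and 3001. They were 2790, 3001, 2805 and 1664 in the Old, Young, Running and Sedentary libraries of the 10x set. In the second set they were 941, 1689.5, 1400.5 and 909. Depth was therefore higher in Young than in Old and in Running than in Sedentary libraries of both sets. Nuclei of the 2 sets were clustered separately and named by marker genes, with the 83 members left out of the clustering. Myh2, Myh1 and Myh4 nuclei could be told apart in the 10x set, whereas every myofibre cluster of the second set had Myh4 as its highest myosin. Old replicate 2 stood apart. In it 83.5% of nuclei fell in no named class, against between 2.71% and 40.3% in the other 7 libraries, and its TMM scaling factor (trimmed mean of M values) was 1.48 against between 0.878 and 0.982 in the 6 Young, Running and Sedentary libraries and 1.02 in Old replicate 1. The members' medians for Old against Young mice are therefore given with and without it. The 10x libraries shared between 30 and 46 cell barcodes pairwise, at most 0.390% of the smaller library. In the second set barcodes were replaced by running cell names, so shared barcodes could not be counted.

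All 83 members had a UMI in all 8 libraries, with 746094 member UMIs in total. Single members had between 122 UMIs (Cox6b2) and 34613 UMIs (Ndufs4) over the 8 libraries. Levels below are CPM, UMI counts scaled to a library or class total of 1000000, with TMM scaling for whole libraries. They are not divided by gene length, so levels are compared between samples and not between genes. Values are listed for Old, Young, Running and Sedentary in this order, first for the 10x set and then for the second set. The 83 members together reached 3207, 3900, 3511 and 2605 CPM in 10x libraries, and 5465, 14920, 11007 and 9099 in the second set. The summed level was therefore higher in the second set within every group, and the order of the groups was Young, Running, Old, Sedentary in the 10x set and Young, Running, Sedentary, Old in the second.

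**Figure D1:**
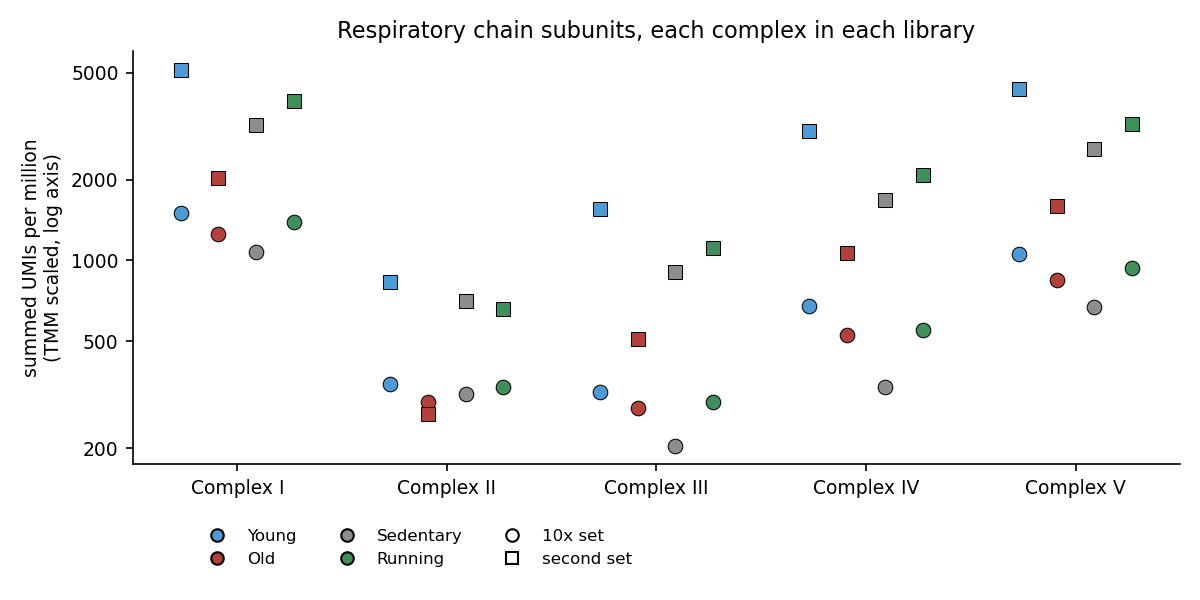
Summed CPM (TMM scaled, log axis) of the members of each complex in each of the 8 libraries, with colours for the groups, circles for the 10x set and squares for the second set. The second-set squares lie above the 10x circles of their group in complexes I, III, IV and V, and in complex II the Old square (269) lies below the Old circle (297).

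Among the members with the most UMIs of each complex, the complex I genes varied little within the 10x set. Ndufs4, an accessory subunit whose loss is a known cause of Leigh syndrome, stood at 185, 209, 210 and 231 CPM in 10x libraries and at 139, 308, 221 and 251 in the second. Ndufs1, the largest core subunit and an iron-sulfur protein, stood at 136, 155, 163 and 129, and at 106, 249, 225 and 245. Ndufs3, another core subunit, stood at 66.9, 93.3, 89.7 and 79.6, and at 31.8, 93.8, 85.5 and 90.7. For all 3 genes the Old library of the second set was the lowest of the 8. The complex II genes behaved likewise in the second set. Sdha, the flavoprotein that oxidises succinate, stood at 143, 166, 162 and 147, and at 88.7, 269, 219 and 252. Sdhb, its iron-sulfur partner, stood at 60.4, 66.7, 70.6 and 62.0, and at 75.6, 251, 225 and 212. Sdhc, a membrane anchor of the complex, stood at 77.8, 97.8, 88.9 and 97.6, and at 80.0, 224, 163 and 191. Young replicate 2 was the highest library for each of these 3 genes.

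In complex III, the core proteins Uqcrc2 and Uqcrc1 and the hinge protein Uqcrh had the most UMIs. Uqcrc2 stood at 71.5, 81.2, 72.4 and 68.8, and at 59.4, 178, 115 and 134. Uqcrc1 stood at 43.0, 57.6, 61.5 and 39.0, and at 33.0, 128, 126 and 87.7. Uqcrh stood at 54.3, 56.8, 58.9 and 45.2, and at 113, 319, 203 and 181. Within the 10x set the Sedentary library was the lowest for each, and within the second set the Old library was. In complex V, the catalytic β subunit gene Atp5b stood at 116, 149, 137 and 71.8, and at 144, 446, 397 and 286. Atp5a1, which encodes the α subunit, stood at 102, 114, 120 and 81.8, and at 162, 496, 425 and 415. Atp5l, a small membrane subunit, stood at 104, 107, 106 and 111, and at 164, 371, 257 and 216. Atp5b and Atp5a1 were lowest in Sedentary replicate 1, whereas for Atp5l the Sedentary library was the highest of the 10x set.

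In complex IV, Cox4i1 and Cox5a are subunits of the early assembly steps, and Cox6a2 is the heart and muscle isoform of subunit 6a. Cox4i1 stood at 66.9, 55.2, 61.6 and 41.1, and at 171, 375, 267 and 191. Cox5a stood at 59.0, 70.8, 56.9 and 44.1, and at 145, 378, 237 and 201. Cox6a2 stood at 50.7, 83.1, 58.8 and 14.9, and at 99.6, 324, 271 and 180. Sedentary replicate 1 was low for Cox6a2 beyond the other 3 libraries of its set. Of the other muscle isoforms, Cox7a1 stood at 6.29, 11.2, 8.99 and 1.98, and at 22.9, 94.6, 71.5 and 40.7, and Cox8b at 25.2, 71.2, 43.4 and 9.06, and at 87.1, 281, 211 and 136. Both again had their lowest value of the 10x set in Sedentary replicate 1. Of the ubiquitous isoforms, Cox7a2 stood at 29.5, 37.4, 27.7 and 18.6, and at 61.8, 148, 100 and 77.6. Cox6a1 stood at 26.8, 30.6, 27.0 and 14.5, and at 12.7, 25.5, 49.8 and 65.1. Cox8a stood at 30.6, 43.7, 29.3 and 13.9, and at 28.4, 44.3, 67.9 and 87.2. In the second set Cox6a1 and Cox8a were highest in the Sedentary library. The muscle isoforms were highest in the Young library, and so were Cox7a2 and Cox4i1.

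The members were then compared between fibre classes, which asks whether the subunit transcripts follow fibre type. UMIs were summed per library and class, and classes were compared within the 4 10x libraries (edgeR quasi-likelihood test, library as a block, Benjamini-Hochberg adjustment over all genes). The classes were built without the members, but from other genes that can vary with them, so the share of all genes called is given beside each count. In Myh2 nuclei, 63 of the 80 members tested were higher than in Myh4 nuclei and none was lower, against 16% of all 12331 genes called higher and 13.3% called lower. The median log2 fold change was 0.75 for the members and -0.004 for all genes. Among genes shorter than 10 kb, the length range of 68.3% of the members, it was 0.02. In Myh1 nuclei 65 of 80 members were higher than in Myh4 nuclei and none lower (12.7% and 11.9% of all genes), with a median of 0.66 against -0.04 for all genes. The 3 members not tested in either comparison, Cox4i2, Cox6b2 and Cox7b2, had too few UMIs in fibres. In all 4 libraries, the summed members were higher in Myh2 and in Myh1 than in Myh4 nuclei. They reached 5596, 7360, 5390 and 3451 CPM in Myh2 nuclei (Old, Young, Running and Sedentary), 5429, 6630, 4881 and 3413 in Myh1 nuclei, and 2958, 3491, 3151 and 2264 in Myh4 nuclei. Of the 80 members, 59 pointed the same way in all 4 libraries for Myh2 and 68 for Myh1. With every nucleus thinned to 500 UMIs, the members called higher numbered 29 for Myh2 and 34 for Myh1.

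Every complex took part in the difference. In Myh2 against Myh4 nuclei, 25 of 37 members were called higher in complex I (median 0.59), 4 of 4 in complex II (0.84), 8 of 8 in complex III (0.74), 11 of 14 tested in complex IV (1.07) and 15 of 17 in complex V (0.86). In Myh1 against Myh4 nuclei the counts were 25 of 37, 4 of 4, 8 of 8, 13 of 14 and 15 of 17. Sdhb had the smallest p-value for Myh2. It stood at 167, 153, 181 and 128 CPM in Myh2 nuclei (Old, Young, Running, Sedentary) and at 51.4, 65.8, 61.4 and 40.9 in Myh4 nuclei, so the 2 classes did not overlap. Its log2 fold change was 1.5 (SE 0.13, edgeR adjusted p = 8.14e-07). Cox7b, Cox6c and Cox4i1, all complex IV subunits, followed with 1.15 (SE 0.12, adjusted p = 3.82e-06), 1.35 (SE 0.15, adjusted p = 6.11e-06) and 1.11 (SE 0.13, adjusted p = 1.22e-05). In Myh1 nuclei the smallest p-values were those of Cox5a (log2 fold change 1.02, SE 0.10), the ATP synthase γ subunit gene Atp5c1 (0.84, SE 0.09), the c-ring subunit gene Atp5g1 (1.21, SE 0.13), Sdhc (0.77, SE 0.09) and the complex I subunit gene Ndufa8 (1.21, SE 0.14), with edgeR adjusted p between 1.17e-05 and 2.83e-05. Cox5a stood at 135, 150, 98.9 and 69.7 CPM in Myh1 nuclei, against 50.8, 69.1, 51.8 and 37.2 in Myh4 nuclei, so the lowest Myh1 value, that of the Sedentary library, lay just above the highest Myh4 value, that of the Young library.

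**Figure D2:**
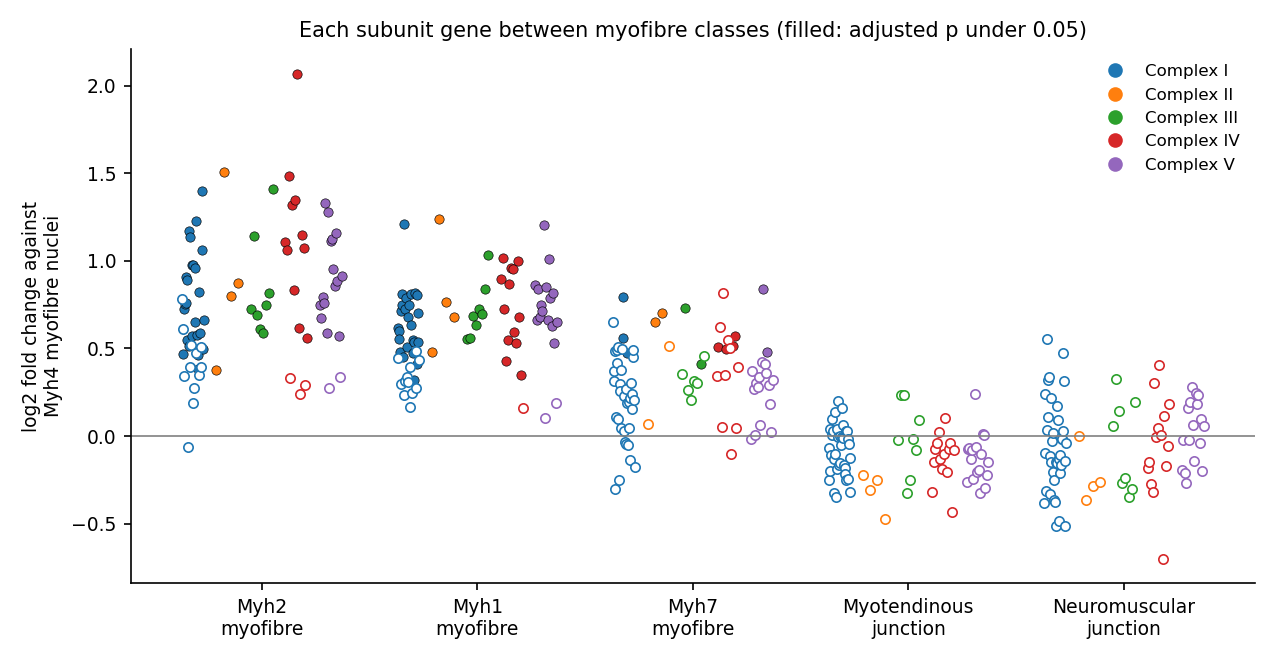
Log2 fold change of each member against Myh4 nuclei for 5 myofibre classes, coloured by complex and filled where the edgeR adjusted p was under 0.05. The 63 and 65 filled points of the Myh2 and Myh1 columns all lie above 0, the Myh7 column holds 13, and the myotendinous and neuromuscular junction columns hold none.

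Myh2 and Myh1 nuclei differed in few members. In Myh2 nuclei 7 of 80 were higher than in Myh1 nuclei and none was lower, near the 7.20% of all genes called higher (5.49% lower), with a median of 0.07. The 7 were Cox6a2, Cox7a1 and Cox6c of complex IV, Uqcr11 of complex III, and Atp5k, Atp5h and Atp5e of complex V. Cox6a2 stood at 146, 335, 112 and 18.7 CPM in Myh2 nuclei and at 76.3, 175, 71.6 and 14 in Myh1 nuclei (log2 fold change 0.77, SE 0.12, edgeR adjusted p = 9.75e-05). Cox7a1, the heart and muscle isoform of subunit 7a, stood at 17.0, 90.9, 27.0 and 3.53 in Myh2 nuclei and at 9.36, 33.4, 10.7 and 2.38 in Myh1 nuclei (1.15, SE 0.25, edgeR adjusted p = 0.0022). Uqcr11, the smallest complex III subunit, differed by 0.64 (SE 0.19, edgeR adjusted p = 0.023). Atp5k and Atp5h, both subunits of the membrane and stalk parts of the synthase, differed by 0.58 (SE 0.18, edgeR adjusted p = 0.034) and 0.47 (SE 0.15, edgeR adjusted p = 0.035). The count fell to 3 without Old or Young replicate 1 and to 2 without Running replicate 1, and thinned nuclei gave 0.

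Nuclei of the slow class, called Myh7 nuclei here, could be compared in 6 libraries, the Old and Sedentary libraries of the 10x set and all 4 of the second set. In the 10x set Myh7 was the highest myosin of this class. In the second set the class rests on slow fibre markers, Myh7 among its leading genes, and Myh4 was its highest myosin, so the 2 sets do not hold the same class. Of 80 members, 13 were higher than in Myh4 nuclei and none lower (11.1% and 10.7% of all genes), with a median of 0.31. Sdhc (0.70, SE 0.14, edgeR adjusted p = 0.0017) and the complex I subunit gene Ndufb3 (0.79, SE 0.18, edgeR adjusted p = 0.0045) had the smallest p-values, followed by Atp5h (0.84, SE 0.21), Sdhb (0.65, SE 0.17) and Cox5a (0.51, SE 0.14). Sdhc stood at 163 and 192 CPM in the Myh7 nuclei of the 10x Old and Sedentary libraries, against 87.2 and 82.5 in their Myh4 nuclei. The median over the members was 0.73 and 0.40 in those 2 libraries and between 0.09 and 0.22 in the second set. Within the 10x libraries alone 33 members were called higher, and within the second set 1. Without Sedentary replicate 1 the count was 2, without Old replicate 1 it was 3, and without any single second-set library it was between 7 and 9. In the second set the class compared with has no separate Myh2 and Myh1 nuclei, and the part of this in the smaller difference was not tested.

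Nuclei of the myotendinous junction, where fibre meets tendon, and of the neuromuscular junction showed no called member against Myh4 nuclei by edgeR. For the myotendinous junction 0 of 79 members were called, with 8.05% of all genes called higher and 7% lower, and 9 members had an unadjusted p under 0.05, all of them lower. Their median over all 79 was -0.10. For the neuromuscular junction 0 of 80 were called (5.51% higher and 5.69% lower of all genes), with 6 members at an unadjusted p under 0.05, 3 in each direction, and a median of -0.04 (-0.07 for all genes). Per library, the myotendinous median lay between -0.04 and -0.24 except in Old replicate 2, which had 32 such nuclei and a median of -1.08. Without that library 2 members were called lower in myotendinous nuclei. The neuromuscular median went from 0.26 in the 10x Old library to -0.40 in the Sedentary library of the second set, and 1 member was called lower without Young, Running or Sedentary replicate 1 or without Sedentary replicate 2.

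The heart and muscle isoforms of complex IV were set beside their ubiquitous partners. Cox7a1 and Cox6a2 differed between Myh2 and Myh4 nuclei by 2.07 (SE 0.26, edgeR adjusted p = 2.18e-05) and 1.32 (SE 0.18, edgeR adjusted p = 5.80e-05). Their partners Cox7a2 and Cox6a1 differed by 0.61 (SE 0.19, edgeR adjusted p = 0.022) and 0.33 (SE 0.17, edgeR adjusted p = 0.17). Cox8b differed by 0.56 (SE 0.16, edgeR adjusted p = 0.018) and its partner Cox8a by 0.29 (SE 0.17, edgeR adjusted p = 0.22). Whether the isoforms of a pair differed in their response was not tested. The share of Cox7a1 in the UMIs of Cox7a1 and Cox7a2 was between 14.9% and 53.7% over the 4 libraries in Myh2 nuclei and between 6.21% and 26.4% in Myh4 nuclei. Within each library it was higher in Myh2 nuclei, at 27.7%, 53.7%, 49.1% and 14.9% against 16.8%, 26.4%, 23.8% and 6.21% (Old, Young, Running, Sedentary). The share of Cox6a2 was between 52.1% and 94.2% in Myh2 nuclei and between 51.6% and 80.0% in Myh4 nuclei. It was again higher in Myh2 nuclei of each library, but by less than the counting intervals in the Sedentary one (52.1% against 51.6%). The share of Cox8b was not higher in Myh2 nuclei of every library. In the Running library Cox8b and Cox8a stood at 61.4 and 42.6 CPM in Myh2 nuclei and at 43.7 and 27.2 in Myh4 nuclei. There the Cox8b share was lower in Myh2 nuclei, and in the Old, Young and Sedentary libraries it was higher.

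RefSeq promoter sequences on build GRCm38.p6 were matched by symbol for 67 of the 83 members. The window searched ran from 250 bases before the gene start to 50 after it. The 200 bases before the start are shown for Sdhb, the member with the smallest p-value between Myh2 and Myh4 nuclei, and for 3 pairs of a ubiquitous and a muscle isoform as far as the table held them. Capitals mark the motifs named below.

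Sdhb, chr4:140961071-140961270, plus strand: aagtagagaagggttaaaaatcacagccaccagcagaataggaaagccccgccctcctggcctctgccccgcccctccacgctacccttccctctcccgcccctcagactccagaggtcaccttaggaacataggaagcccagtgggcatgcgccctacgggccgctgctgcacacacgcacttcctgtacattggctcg
Cox6a1, chr5:115348959-115349158, minus strand: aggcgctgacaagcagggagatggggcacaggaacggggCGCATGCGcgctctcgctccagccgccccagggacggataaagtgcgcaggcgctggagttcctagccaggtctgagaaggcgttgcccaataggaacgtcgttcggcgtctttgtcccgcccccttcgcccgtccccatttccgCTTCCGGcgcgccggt
Cox7a1, chr7:30183971-30184170, plus strand: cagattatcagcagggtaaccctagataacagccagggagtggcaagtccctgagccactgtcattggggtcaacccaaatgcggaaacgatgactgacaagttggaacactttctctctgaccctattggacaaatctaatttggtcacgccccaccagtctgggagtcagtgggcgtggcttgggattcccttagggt
Cox7a2, chr9:79759854-79760053, minus strand: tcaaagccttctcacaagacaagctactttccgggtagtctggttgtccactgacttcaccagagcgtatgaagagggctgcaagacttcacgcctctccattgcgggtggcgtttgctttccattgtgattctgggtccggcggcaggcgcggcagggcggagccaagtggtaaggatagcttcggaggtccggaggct
Cox8b, chr7:140900447-140900646, minus strand: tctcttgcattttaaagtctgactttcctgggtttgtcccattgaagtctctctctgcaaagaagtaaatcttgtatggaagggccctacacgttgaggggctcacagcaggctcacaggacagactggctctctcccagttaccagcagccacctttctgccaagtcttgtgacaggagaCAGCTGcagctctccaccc
Cox8a, chr19:7217617-7217816, minus strand: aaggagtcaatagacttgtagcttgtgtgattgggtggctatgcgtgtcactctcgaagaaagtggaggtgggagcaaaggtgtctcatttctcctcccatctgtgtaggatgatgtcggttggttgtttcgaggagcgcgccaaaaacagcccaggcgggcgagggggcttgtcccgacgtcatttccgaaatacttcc

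Cox6a1, the ubiquitous isoform, carried the core motif of nuclear respiratory factor 1, CGCATGCG, between 154 and 161 bases before its start and the ETS and GABP motif CCGGAAG, on the other strand, between 10 and 16 bases before it. Cox8b, the muscle isoform, carried the E-box CAGCTG between 14 and 19 bases before its start. The searched windows of Sdhb and Cox8a also held CCGGAAG, and that of Cox8b TATAAA, outside the stretches printed. Over the 67 members, CGCATGCG was in 8 promoters (11.9%, against 1.91% of all 27025), CCGGAAG in 16 (23.9%, against 9.12%), the YY1 motif AAGATGGC in 8 (11.9%, against 2.88%) and the estrogen-related receptor motif AAGGTCA in 8 (11.9%, against 4.66%). The E-box CAGCTG was in 6 (8.96%, against 16.1%) and TATAAA in 8 (11.9%, against 14.2%). Both strands were searched, and windows of the same length were used for all genes. The median GC content of the 200 bases before the start was 57.5% for the members and 53% for all promoters. The part of GC content in these shares was not tested. Of the tested members whose windows hold CCGGAAG, 12 of 16 were called higher in Myh2 than in Myh4 nuclei, against 38 of 49 without it.

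Between cell types, Myh4 nuclei were compared with fibro-adipogenic progenitors, the connective tissue progenitors of muscle, within the 10x set. In Myh4 nuclei 64 of 81 members were higher and 1 was lower, against 34.4% and 35.3% of all genes, with a median of 0.68 (0.11 among genes shorter than 10 kb). Sdhc stood at 87.2, 100, 82.7 and 82.5 CPM in Myh4 nuclei (Old, Young, Running, Sedentary) and at 41.7, 43.6, 49.8 and 44.8 in progenitors (log2 fold change 1.44, SE 0.12, edgeR adjusted p = 3.42e-05). Ndufs1 (1.20, SE 0.12), Uqcrc1 (1.27, SE 0.13), Atp5l (0.97, SE 0.10) and Atp5f1, a stalk subunit gene of the synthase (0.97, SE 0.11), followed with edgeR adjusted p between 6.83e-05 and 1.22e-04. The member lower in Myh4 nuclei was Cox6b2, known as the testis isoform of subunit 6b, at 0.296, 0.0821, 0 and 0.113 CPM against 1.68, 1.94, 2.69 and 4.89. Over the 4 10x libraries Cox6b2 had 8 UMIs in 20157 Myh4 nuclei and 49 in 8976 progenitors. In muscle stem cell nuclei it reached 8.54 CPM, from 23 UMIs.

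Acta1, the skeletal muscle actin gene, was also counted outside fibres. It was at 545, 383, 922 and 262 CPM in progenitors against 826, 1267, 1813 and 267 in Myh4 nuclei. The muscle isoforms were set against it. Cox6a2 had between 3.81 and 6.44 UMIs per 100 Acta1 UMIs in progenitors and between 3.08 and 6.79 in Myh4 nuclei, and Cox8b between 2.17 and 5.11 and between 2.41 and 6.36. The ranges of the 2 classes overlap for both genes. How much of the Cox6a2 and Cox8b counted in progenitors came from fibres was not tested. Cox8a, a ubiquitous isoform, had in adipocytes between 7.79 and 28.8 UMIs per 100 Acta1 UMIs, against between 1.5 and 4.55 in Myh4 nuclei and between 2.17 and 8.42 in progenitors.

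**Figure D3:**
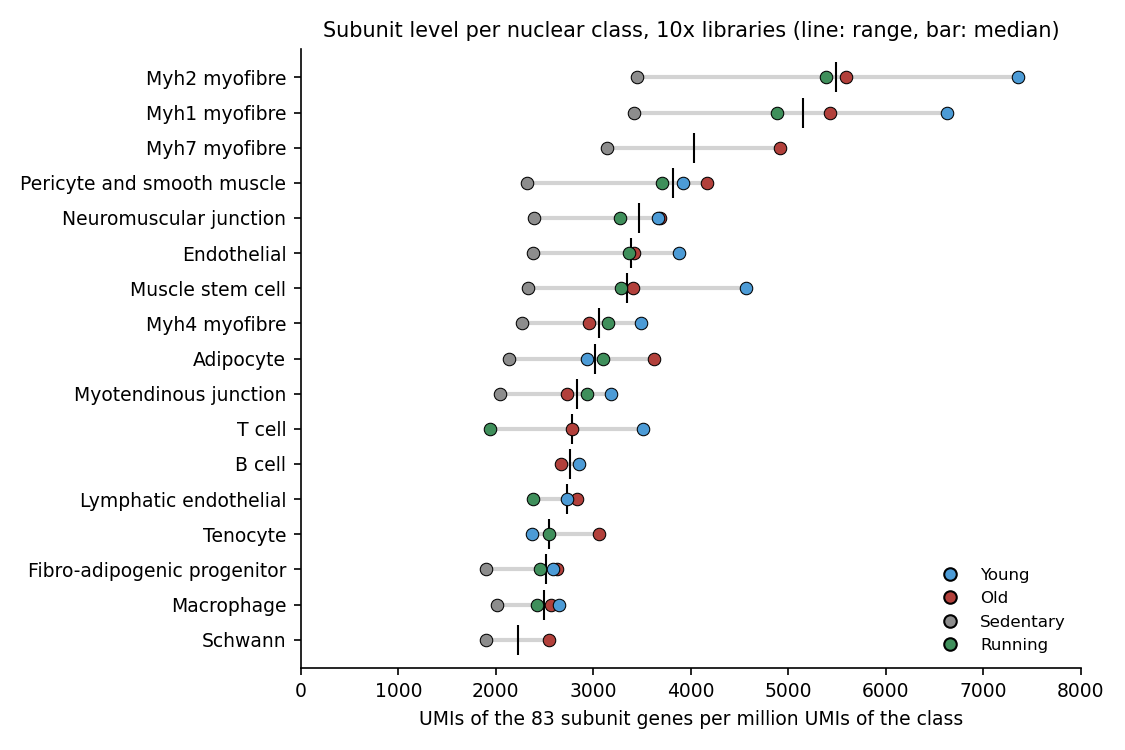
Summed CPM of the 83 members for each named class of the 10x set, with 1 point per library coloured by group, a line for the range and a bar for the median. Myh2 (3451 to 7360) and Myh1 (3413 to 6630) nuclei have the highest values, and macrophages (2012 to 2645) and fibro-adipogenic progenitors (1902 to 2628) lie among the lowest.

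Other cell types were set against the same progenitors. In endothelial nuclei 31 of 78 members were higher and 1 lower (18.3% and 20.2% of all genes), with a median of 0.47. The c-ring subunit gene Atp5g3 (0.92, SE 0.16, edgeR adjusted p = 5.48e-04), Cox5a (0.97, SE 0.18), Ndufa4 (0.79, SE 0.15), Cox6b1 (0.92, SE 0.19) and Ndufa8 (1.19, SE 0.25) were the leading genes, and the lower member was Ndufs4 (-0.37, SE 0.13, edgeR adjusted p = 0.035). In muscle stem cell nuclei 22 of 78 were higher and none lower (15.8% and 21.3%), with a median of 0.43. Ndufc2 of complex I led with 1.04 (SE 0.19, edgeR adjusted p = 7.15e-04), at 46.1, 64.0, 47.9 and 16.8 CPM against 23.4, 23.1, 20.9 and 14.7 in progenitors. Atp5c1 (0.54, SE 0.13), Atp5a1 (0.57, SE 0.14), Atp5g2 (0.86, SE 0.22) and Cox8a (0.93, SE 0.24) came next, and Atp5g2 and Cox8a were higher in 3 of 4 libraries. The stem cell median ranged from 0.07 in the Sedentary to 0.71 in the Young library. Without Young replicate 1, 4 members were called higher in stem cells and 17 in endothelial nuclei, and without Running replicate 1 the endothelial count was also 17. Without Old, Young or Sedentary replicate 1 Ndufs4 was not called in endothelial nuclei. In nuclei thinned to 500 UMIs the counts were 7 and 8.

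In adipocyte nuclei 11 of 79 members were higher and 1 lower, below the 18.1% and 20.8% of all genes called, with a median of 0.32. Ndufb3 stood at 76.2, 71.1, 60.0 and 59.8 CPM in adipocytes and at 31.5, 28.3, 28.1 and 25.2 in progenitors, without overlap (1.26, SE 0.13, edgeR adjusted p = 8.42e-04). Cox8a stood at 86.8, 64.7, 35.9 and 24.5 against 31.6, 32.2, 21.9 and 5.70 (1.23, SE 0.23, edgeR adjusted p = 0.0072). Cox6a2 was the lower member, at 13.4, 16.2, 13 and 4.60 against 35.1, 24.6, 35.1 and 10.6 (-1.14, SE 0.23, edgeR adjusted p = 0.0094). Acta1 was lower too, at 302, 240, 461 and 154 in adipocytes. Atp5g3 (0.98, SE 0.20), Ndufb4 (0.72, SE 0.17) and Ndufs3 (0.58, SE 0.16) were also called higher. The count of higher members was 2 without Old replicate 1 and 5 without Young or Running replicate 1, and without Old replicate 1 the lower member was not called. In macrophages none of 79 members was higher and 2 were lower (22.4% and 23.2% of all genes), with a median of -0.01. The 2 were Ndufs4 (-0.52, SE 0.12, edgeR adjusted p = 0.0025) and Ndufv1, the NADH-binding core subunit (-0.84, SE 0.26, edgeR adjusted p = 0.018). The number called lower was 1 without Old, Young or Running replicate 1 and 3 without Sedentary replicate 1.

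Pericyte and smooth muscle nuclei, the mural cells of vessels, had 28 of 75 members higher than in progenitors and none lower, against 13.9% of all genes called higher and 13.9% lower, with a median of 0.69. Cox4i2, the isoform of subunit 4 known from lung and from oxygen sensing, set this class apart. It stood at 53.0, 77.8, 33.8 and 30.2 CPM in pericyte and smooth muscle nuclei (Old, Young, Running, Sedentary) from 11, 37, 11 and 6 UMIs. In progenitors it stood at 0.240, 0.448, 0 and 0, from 5 UMIs in all. The log2 fold change was 7.74 (SE 0.51, edgeR adjusted p = 4.59e-09), and the ratio of the pooled levels was 239 with an exact 95% interval of 97.3 to 761 that covers counting error only. Against all other 10x nuclei the ratio was 159 (108 to 235). The class held 1.11% of the 10x nuclei and 65 of the 114 Cox4i2 UMIs of the set (57.0%). The share of Cox4i2 in the UMIs of Cox4i1 and Cox4i2 was 33.3% (95% Wilson interval 19.8 to 50.4), 48.7% (37.8 to 59.7), 26.2% (15.3 to 41.1) and 46.2% (23.2 to 70.9) in the 4 libraries. In endothelial nuclei it was between 2.44% and 17.6%, in adipocytes at most 2.78% and in Myh4 nuclei at most 0.702%. After Cox4i2 came Atp5g3 (1.34, SE 0.20), Cox8a (1.20, SE 0.25), Ndufa7 (1.07, SE 0.24) and Atp5l (0.74, SE 0.17), with edgeR adjusted p between 5.63e-05 and 0.0031. The count of higher members was 18, 17 and 13 without Old, Young and Running replicate 1, and 2 in nuclei thinned to 500 UMIs.

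**Figure D4:**
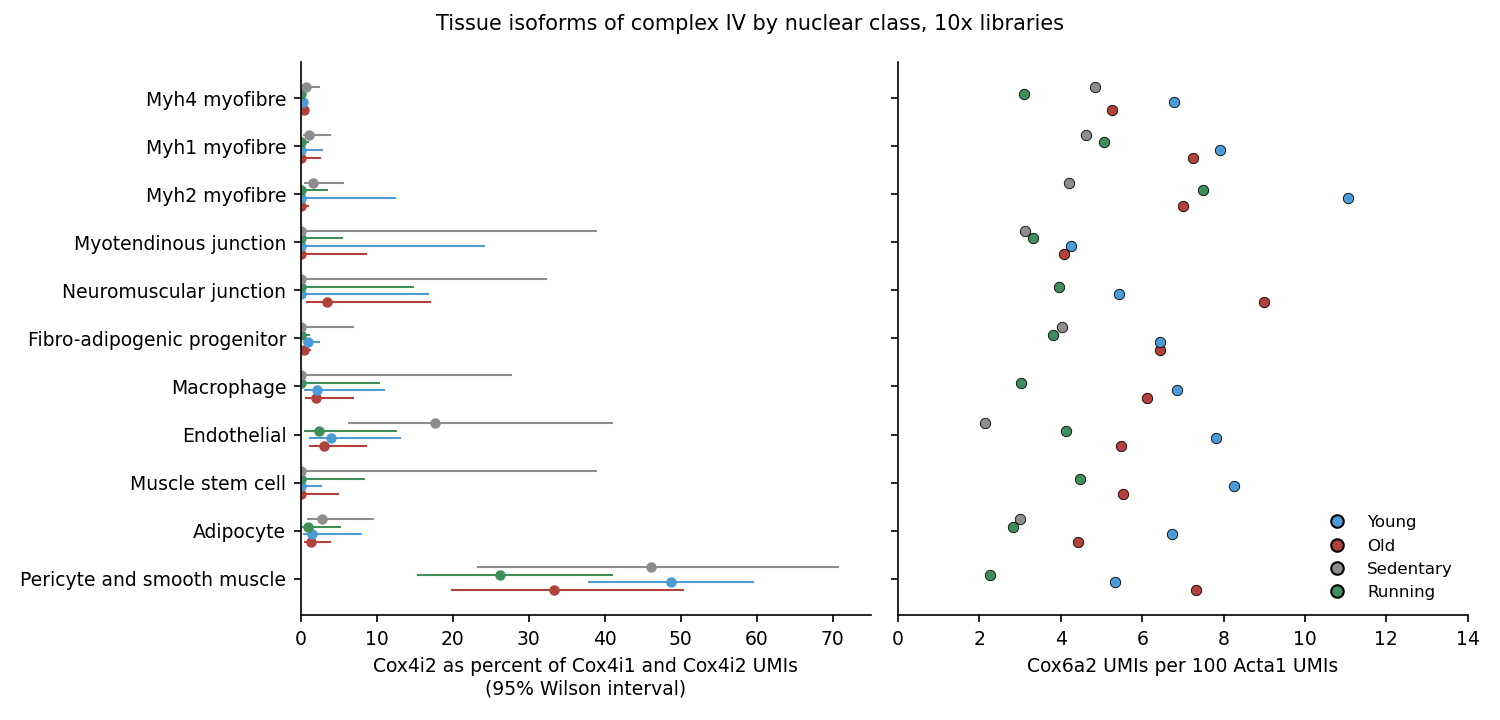
Left, Cox4i2 as a percent of Cox4i1 and Cox4i2 UMIs with 95% Wilson intervals for each class and 10x library. Right, Cox6a2 UMIs per 100 Acta1 UMIs where a class had enough Acta1 UMIs in a library. Pericyte and smooth muscle nuclei lie between 26.2% and 48.7% on the left and the other classes shown at or below 17.6%, whereas on the right the class medians lie between 3.69 and 7.25.

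The groups were first compared over all nuclei of a library, which asks whether subunit transcripts differ with age and with running. In such sums, fewer nuclei of a type and less RNA per nucleus cannot be told apart. Median UMIs per nucleus also differed along both contrasts, with Young above Old and Running above Sedentary in both sets. In Old against Young muscle 80 of the 83 members were lower and 3 were higher, and 43.8% of the 20319 genes tested were lower. The median log2 fold change was -0.83 for the members and 0.19 for all genes. No member was called by edgeR (0% of all genes were called), and DESeq2 called none of the members either. At an unadjusted p under 0.05 there were 15 members, all of them lower, beside 2.74% of all genes. The smallest adjusted p of the fit was 0.69, and the fit had 3 residual degrees of freedom. With 2 libraries on each side, the smallest p that an exact permutation test allows is 0.333.

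The 3 members with the smallest p-values were Cox8b, Ndufa12 and Atp5j. Cox8b stood at 25.2 CPM in the Old and 71.2 in the Young library of the 10x set, and at 87.1 and 281 in the second set (log2 fold change -1.57, SE 0.54). Ndufa12, a complex I accessory subunit gene, stood at 30.8 and 56.0, and at 39.6 and 88.9 (-1.01, SE 0.35). Atp5j, which encodes coupling factor 6 of the synthase, stood at 22.2 and 36.8, and at 22.9 and 104 (-1.33, SE 0.49). For each of the 3 the Old library was lower in both sets, which held for 26.6% of all genes. Their unadjusted p-values in edgeR were 0.019, 0.021 and 0.027 (adjusted p = 0.69 for each). The other 12 were Cox7b, Cox6b1, Ndufa10, Ndufa3, Ndufc1, Ndufs3, Ndufv2, Uqcrb, Atp5c1, Atp5g2, Atp5mpl and Atp5o, with log2 fold changes between -1.23 and -0.88.

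The members that were higher in Old muscle were the rarely detected Cox7b2, Cox6b2 and Cox4i2. Cox7b2, a second isoform of subunit 7b, stood at 0.935 and 0.491 in the 10x Old and Young libraries and at 21.3 and 4.76 in the second set (1.94, SE 1.39). Cox6b2 stood at 1.04 and 0.722, and at 0.546 and 0.232, from at most 41 UMIs in a library (0.80, SE 1.05). Cox4i2 stood at 0.682 and 1.39, and at 3.28 and 0.929, and so was lower in the Old library of 1 set and higher in that of the other (0.74, SE 1.16). Their unadjusted p-values in edgeR were 0.20, 0.47 and 0.54.

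The difference was of unequal size in the 2 sets. The median over the members was -0.31 within the 10x set but -1.45 within the second, and 69 of the 83 were lower in both sets (26.6% of all genes). By complex the medians of the fit were -0.75 for I, -0.84 for II, -0.82 for III, -0.80 for IV and -0.90 for V, and all members of complexes I, II, III and V were lower. Without Old replicate 2 the median was -0.32, and without Old replicate 1 it was -1.46. A cluster of 998 nuclei in the second set had the members at between 31613 and 41876 CPM. It held 689 nuclei of Young replicate 2 and 197 of Old replicate 2. Its shares of mitochondrial UMIs (between 2.52% and 4.49%) and of ribosomal protein UMIs (between 2.43% and 3.52%) were the highest of all clusters in each library. Without this cluster the median was -0.64, and over named nuclei alone it was -0.40. Gene length moved with the contrast as well. The members had a median length of 7.57 kb against 25 kb for all genes, and the median fold change was -0.07 among genes shorter than 10 kb and 0.61 among genes longer than 100 kb. With the length trend of each library removed, the members' median was -0.51.

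In Running against Sedentary muscle 75 of 83 members were higher and 8 lower, with 46.5% of all genes higher. The median was 0.45 for the members and -0.04 for all genes. No member was called by edgeR (0% of all genes) or by DESeq2, and 3 had an unadjusted p under 0.05, all higher, beside 0.482% of all genes. Atp5o, whose product links the catalytic head and the stalk of the synthase, stood at 26.2 CPM in the Running and 12.1 in the Sedentary library of the 10x set and at 221 and 132 in the second set (log2 fold change 0.91, SE 0.38). Cox8b stood at 43.4 and 9.06, and at 211 and 136 (1.28, SE 0.54). Cox7a1 stood at 8.99 and 1.98, and at 71.5 and 40.7 (1.35, SE 0.58). For each of the 3 the Running library was higher in both sets, by more in the 10x set. Their unadjusted p-values in edgeR were 0.043, 0.046 and 0.049, and none passed the adjustment. In a fit of these 4 libraries alone, 4 of 81 members were called beside 82 of all 18419 genes, among them Cox8b (adjusted p = 0.0028 in edgeR), Cox6a2 (adjusted p = 0.0086) and Cox7a1 (adjusted p = 0.023). With a library set term, that fit left fewer residual degrees of freedom than the 3 of the main fit, so its spread is poorly known. The main fit called none of these genes.

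Of the 8 lower members, Cox4i2 stood at 0.390 and 1.01, and at 0.150 and 0.470 (-1.38, SE 1.19), Cox7b2 at 1.10 and 3.56, and at 1.35 and 0.705 (-1.32, SE 1.39), and Sdhc at 88.9 and 97.6, and at 163 and 191 (-0.18, SE 0.39). The others were Cox6b2, Ndufa10, Ndufs4, Sdha and Uqcrc2. By complex the medians were 0.46 for I, 0.04 for II, 0.58 for III, 0.34 for IV and 0.60 for V, and 17 of 17 members of complex V were higher. The ubiquitous isoforms Cox6a1 and Cox8a went in different directions in the 2 sets. Cox6a1 stood at 27.0 and 14.5 in the 10x Running and Sedentary libraries and at 49.8 and 65.1 in the second set. Cox8a stood at 29.3 and 13.9, and at 67.9 and 87.2. Over the members, 66 were higher in both sets (26.2% of all genes), with a median of 0.58 in the 10x and 0.29 in the second set. Without Sedentary replicate 1 the median fell to 0.16, and without Sedentary replicate 2 it was 0.75 with 1 member called. With the length trend removed it was 0.14. Genes shorter than 10 kb had a median of 0.24 and genes longer than 100 kb one of -0.19.

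**Figure D5:**
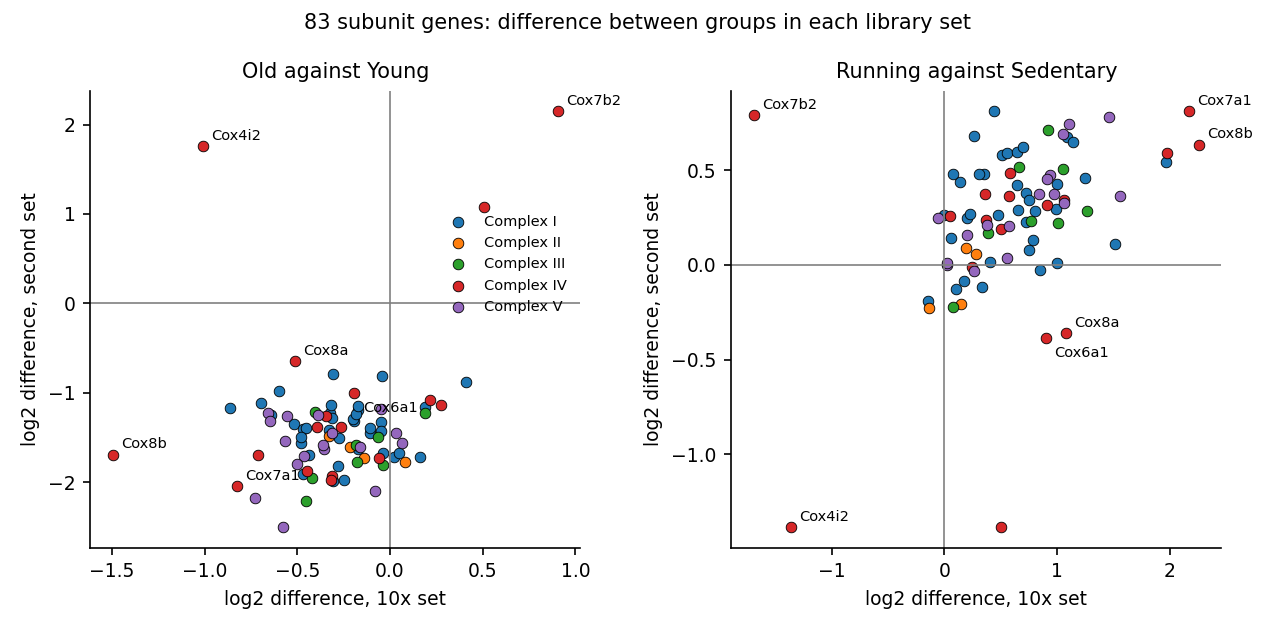
Log2 difference of each member between groups in the 10x set (horizontal) and the second set (vertical), for Old against Young (left) and Running against Sedentary (right), coloured by complex. On the left 69 points are below 0 in both sets and most lie further from 0 in the second, and on the right 66 points are above 0 in both, with Cox8b and Cox7a1 far to the right.

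The same contrasts were then made within a class. The Myh4 class pools several clusters, and its mix of clusters differed between groups. In the 10x set, cluster 3 held 1942 of the 3333 Sedentary and 1602 of the 4108 Old Myh4 nuclei, but 248 of the 5899 Running and 183 of the 6817 Young ones. In the second set most Running nuclei were in cluster 2 (1803 of 3297), most Sedentary in cluster 3 (1794 of 3434), and most Young (1621 of 2216) and Old (307 of 463) in cluster 1. The members' summed level differed between clusters of a library, for example 9813 CPM in cluster 2 and 8529 in cluster 3 of Running replicate 2, so a change within the class includes a change of mix. Of all 16566 genes tested in Myh4 nuclei of Old against Young muscle, 8147 were lower, with a median of 0.01. Genes shorter than 10 kb had a median of 0.06. Of the members 77 of 81 were lower, with a median of -0.36. None was called by edgeR (0% of all genes), and 6 had an unadjusted p under 0.05, all lower, among them Atp5c1 (-0.74, SE 0.25), Uqcrc1 (-0.82, SE 0.35) and Cox7a1 (-1.29, SE 0.56). At that p there were 763 of all 16566 genes, 462 of them lower. The Old library of the second set had 463 Myh4 nuclei of 4772. Without Old replicate 2 the median was -0.28, without Old replicate 1 it was -0.73, and without Young replicate 1 it was -0.17. In nuclei of the myotendinous junction 57 of 79 were lower, with a median of -0.32 (-0.09 for all genes), none called (0% of all genes) and none at an unadjusted p under 0.05 in edgeR. Of all 6220 genes tested in these nuclei 3516 were lower, and genes shorter than 10 kb had a median of -0.03. Without Old replicate 2, which had 32 such nuclei, the members' median was -0.14, and without Old replicate 1 it was -1.02.

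Of all genes tested in Myh4 nuclei of Running against Sedentary muscle, 51.6% were higher, with a median of 0.02. Among genes shorter than 10 kb 74.7% were higher, with a median of 0.31. Of the members 72 of 81 were higher, with a median of 0.43. None was called (0% of all genes), and 10 had an unadjusted p under 0.05 in edgeR, all higher, among them Ndufb2 (0.87, SE 0.30), Atp5o (0.82, SE 0.30), Atp5d (1.06, SE 0.40) and Cox7a1 (1.36, SE 0.55). At that p there were 276 of all 16566 genes, 179 of them higher. Without Sedentary replicate 1 the members' median was 0.12, and without Sedentary replicate 2 it was 0.80. At the myotendinous junction 74 of 79 members were higher, with a median of 0.44, beside 52.1% of all 6220 genes (median 0.02). Genes shorter than 10 kb had a median of 0.38. No member was called (0% of all genes). At an unadjusted p under 0.05 in edgeR there were 6 members, all higher, beside 188 of all genes. Without Sedentary replicate 1 the members' median was 0.16, and without Sedentary replicate 2 it was 0.87. At the neuromuscular junction 59 of 76 members were higher, with a median of 0.54, beside 52.8% of all 6246 genes (median 0.04). Genes shorter than 10 kb had a median of 0.40. Called were 0.208% of all genes but no member. Atp5b (1.71, SE 0.46, edgeR adjusted p = 0.12) and Cox8b (1.84, SE 0.60, edgeR adjusted p = 0.37) came nearest. At an unadjusted p under 0.05 in edgeR there were 4 members, beside a similar share of all genes (312 of 6246). The part of gene length in these within-class differences was not tested. A test of the difference between myotendinous and Myh4 nuclei called no member in edgeR for either contrast. For Old against Young none of the 80 members tested had an unadjusted p under 0.05, and for Running against Sedentary 1 had. Of all 11594 genes, 369 and 285 had.

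Other genes of the pathway were described from 3 lists. Of 47 factors that assemble the complexes, 42 were lower in Old muscle, with a median of -0.57, and none was called by edgeR. Of all genes 43.8% were lower. At an unadjusted p under 0.05 there were 3 factors, beside 2.74% of all genes. They were the complex I factor gene Ndufaf5 (-0.91, SE 0.37), the complex III factor gene Uqcc1 (-0.84, SE 0.36) and Cox10 (-0.84, SE 0.36), which takes part in making the heme A of complex IV. Of 22 genes for electron carriers and coenzyme Q synthesis 19 were lower (median -0.58), and of 13 regulators of the oxidative programme 12 were lower (median -0.34). Within the 10x set the direction was mixed. There the regulators Esrra, Esrrb, Esrrg, Tfam, Ppara and Polrmt were higher in the Old library. So were the carrier genes Cyc1, Etfb, Coq3, Coq4, Coq5, Coq7, Coq8a and Coq10a. Esrrg stood at 407 CPM in Old and 202 in Young of the 10x set, and at 414 and 933 in the second set. Ppargc1b, a coactivator of the PGC-1 family, had the smallest p-value of the regulators (-0.98, SE 0.37, unadjusted p = 0.029 in edgeR). In Running muscle 32 of 47, 12 of 22 and 2 of 13 were higher, with medians of 0.14, 0.07 and -0.09, beside 46.5% of all genes higher. Between Myh2 and Myh4 nuclei, 6 of 45 assembly factors were called higher and 2 lower, against 12 and 2 of 22 carrier genes and 6 and 1 of 13 regulators, with 16% of all genes called higher and 13.3% lower. Between Myh1 and Myh4 nuclei these counts were 7 and 1, 12 and 1, and 7 and 0, with 12.7% and 11.9% of all genes. The subunits encoded in mitochondrial DNA, whose transcripts lie outside the nucleus, summed, without TMM scaling, to 4176, 1370, 2382 and 2276 CPM (Old, Young, Running, Sedentary) in the 10x set and to 5057, 9317, 18917 and 16015 in the second set. Old was above Young in the first set and below it in the second, and the Old and Young order of the nuclear-encoded members was the same in both.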

How the data were processed

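Nuclei of mouse gastrocnemius were sequenced in 8 libraries, and the authors deposited a matrix of UMI counts per gene and nucleus for each. The 10x libraries were made with Cell Ranger 6.1.2 and the second set with PISA 0.12, per the labels and the study's methods, with reads aligned to mm10. Whether reads in introns were counted is not given in the sources used here. Following the study's limits, a nucleus needed over 200 detected genes, below 6000, and a mitochondrial share below 6%. Genes of the mitochondrial genome and of ribosomal proteins did not enter the tests. Each library set was clustered on its own (scanpy 1.11.5, leidenalg 0.10.2, 2000 variable genes, resolution 1.0) without the members, and clusters were named from 15 marker lists with at least 3 detected markers. The naming limits were set after the clusters were seen, and the slow class of the second set was named from its slow markers although Myh4 was its highest myosin. Doublets were not removed, and the doublet calls of Scrublet, which scores each nucleus, were not used. Dropping the top 6% of its scores in each library was an alternative.

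UMIs were summed per library, or per library and class with at least 20 nuclei, and tested with edgeR 4.0.16 (R 4.3.3, quasi-likelihood, TMM, low counts filtered, Benjamini-Hochberg over all genes, threshold 0.05). Library set was a term in group comparisons and library a block in class comparisons. Named with values are the 3 members of each complex with the most UMIs, the complex IV isoform pairs, the 3 smallest p-values in each direction per group comparison, up to 5 in each direction per class comparison and up to 3 genes per pathway list. Within-class genes were chosen after their values were seen. The members and lists were chosen with earlier results of these data known. Separate animals per library are not stated, so p-values measure only the spread between these libraries. Intervals cover counting error only. Alternatives were DESeq2 1.42.0, other scaling, no filter, thinning, removal of the length trend and each library left out. The scripts were tested on simulated data.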

Additional observations from a re-analysis of the deposited data

How the results depend on the processing

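The labels give no replicate numbers. Each library set held 1 library of each group, so the library set term already paired the groups, and fits without it are given below. Over all alternatives, 179 medians moved by less than the spread and 26 by more, and 5 changed sign. The spread was the standard deviation of the members' median between the 2 library sets for group comparisons and between libraries for class comparisons. For Old against Young over all nuclei the set medians were -0.31 and -1.45. That spread was wide, so even the shift without Old replicate 2 counted as smaller. Of the counts of called members, 266 stayed within 1.5 times and 65 did not. The 266 include counts of 0 that stayed 0. Removing the second-set cluster with the highest member level and keeping named nuclei only were chosen after seeing the data. The causes were not tested. With 2 libraries a group, only very large differences could be called, and many of those were missed. In simulated data the Old and Young fit called 1.47% of genes changed by a log2 fold change of 1. It called 4.29% of those changed by 2 and 40.3% of those changed by 3.

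In Running against Sedentary, Cox6a1 was -0.047 and Cox8a -0.052 without the library set term. With the length trend removed the members' median was 0.14, Cox6a1 -0.23 and Cox8a -0.16, and Cox8a was -0.011 in thinned nuclei. The 4 libraries alone gave 4 called members, with fewer residual degrees of freedom than the main fit. In Old against Young, Cox4i1 was 0.18 over named nuclei only. Without the set term the Old and Young medians were -0.41 in Myh4 and -0.73 in myotendinous nuclei.

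For neuromuscular against Myh4 nuclei, 1 member was called at Leiden resolution 0.5 and 1 with DESeq2 size factors, where the median was 0.0097. The median was 0.082 in the 10x and -0.33 in the second libraries. With no filter on low counts, the Myh7 count was 1 (median 0.012), the count for Myh2 against Myh1 3, for adipocytes 3 and for pericytes 12 (median 0.45), and the medians were -0.45 for the myotendinous junction, -0.47 for the neuromuscular junction and -0.19 for macrophages. In that setting the median of all genes was itself -0.42 and -0.58 for the junctions, -0.30 for Myh7, -0.28 for pericytes and -0.20 for macrophages. Without the highest Scrublet scores 17 members were higher in adipocytes. Thinning to 500 UMIs gave 29 for Myh2, 34 for Myh1, 4 for Myh7, 0 for Myh2 against Myh1, 5 for adipocytes, 8 for endothelial nuclei, 7 for stem cells and 2 for pericytes (median 0.48). Myh7 had 33 in the 10x and 1 in the second libraries. At resolution 0.5 no Myh1 class and no within-neuromuscular value could be had.

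Leaving out single libraries moved the Old and Young values of Cox7b2 between -0.997 and 3.70, Cox4i2 between -1.21 and 1.95, Cox4i1 between -0.997 and 0.037, Cox6a1 between -1.77 and 0.25 and Cox8a between -1.46 and 0.17. It moved the Running and Sedentary values of Cox7b2 between -2.87 and 2.68, Cox6a1 between -0.82 and 1.52 and Cox8a between -0.73 and 1.58, the members' median between 0.16 and 0.75 and the calls between 0 and 1. The Old and Young medians ran from -0.73 to -0.17 in Myh4 and from -1.02 to -0.14 in myotendinous nuclei. The Running and Sedentary medians ran from 0.12 to 0.80 in Myh4, from 0.16 to 0.87 in myotendinous and from 0.39 to 0.78 in neuromuscular nuclei (0 to 1 called). Counts of higher members ran from 2 to 9 for Myh7, 2 to 6 for Myh2 against Myh1 (median 0.033 to 0.16), 0 to 1 for neuromuscular, 2 to 9 for adipocyte, 17 to 26 for endothelial (median 0.45 to 0.58), 4 to 24 for stem cell, 0 to 1 for macrophage (median -0.037 to 0.037) and 13 to 19 for pericyte nuclei. Counts of lower members ran from 0 to 2 for myotendinous nuclei, 0 to 1 for neuromuscular, adipocyte and endothelial nuclei and 1 to 3 for macrophages.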
